A study of Homo sapiens with 9 samples.

Results

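The SMAD family comprises the proteins that carry transforming growth factor beta (TGF-β), activin and bone morphogenetic protein (BMP) signals to the nucleus, and their inhibitors. Its members were taken by name, SMAD1, SMAD2, SMAD3, SMAD4, SMAD5, SMAD6, SMAD7 and SMAD9, and all 8 were found among the 60676 genes of the count table. Of the 8, 7 passed the filter on low counts and were tested among 15500 genes. SMAD9 did not pass. RNA sequencing was done on A549, an established human lung adenocarcinoma cell line that grows as an epithelial sheet. The cells received a lentivirus overnight, were cultured for 2 days, and were then kept for another 3 days in puromycin at 1 ng/mL, as the labels give the dose, before RNA was isolated. Cells with shLITATS1-1 and cells with shLITATS1-2 carried different short hairpin RNAs against the long noncoding RNA LITATS1, and cells with shNT, the control, carried a non-targeting hairpin, with 3 libraries in each group. The lentiviral vector and puromycin were common to all 3 groups, no added TGF-β or BMP is named in the labels, and the labels do not say whether libraries of a group came from separate transductions. The p-values therefore measure the spread between these libraries, which may be technical.

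Ligand binding brings type II and type I receptors together, and the type I receptor phosphorylates receptor-regulated SMADs at serines at the very end of the protein. SMAD2 and SMAD3 are the receptor-regulated SMADs of TGF-β and activin, and SMAD1, SMAD5 and SMAD9 those of BMPs. Once phosphorylated they join the common partner SMAD4, enter the nucleus and act on transcription. SMAD6 and SMAD7 are inhibitory: they bind receptors, recruit ubiquitin ligases and block phosphorylation, and their genes are themselves induced by the pathway. In lung epithelial cells this pathway is best known for growth arrest and for the epithelial to mesenchymal transition.

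The ends of the 8 coding sequences are shown because they hold the feature that sets the receptor-regulated SMADs apart from the other members. Each line gives the last 30 coding bases before the stop codon, 5′ to 3′ on the strand of the gene, from the GENCODE 29 reference on GRCh38, with the last 4 codons in capitals.
SMAD2: tccccttcagtgcgttgcTCAAGCATGTCA
SMAD3: tccccaagcatccgctgtTCCAGTGTGTCT
SMAD1: tcacctcataatcctattTCATCTGTATCT
SMAD5: tcccctctgaaccccataTCTTCTGTTTCA
SMAD9: tctccacataaccccattTCTTCAGTGTCT
SMAD4: atgccgattgcagacccaCAACCTTTAGAC
SMAD6: tggctggagatcctcctcAACAACCCCAGA
SMAD7: tgctggctagaggtcatcTTCAACAGCCGG
In the capitals, SMAD2, SMAD3, SMAD1, SMAD5 and SMAD9 each have 3 serine codons, SMAD7 has 1, and SMAD4 and SMAD6 have 0. The stretches lie at chr18:47841830-47841859 (minus strand) for SMAD2, chr15:67190504-67190533 (plus) for SMAD3, chr4:145557902-145557931 (plus) for SMAD1, chr5:136177448-136177477 (plus) for SMAD5 and chr13:36848679-36848708 (minus) for SMAD9. Those of the other members lie at chr18:51078435-51078464 (plus) for SMAD4, chr15:66781503-66781532 (plus) for SMAD6 and chr18:48921375-48921404 (minus) for SMAD7. All 8 are in coding exons of protein-coding genes.

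The 9 libraries held 24556848 to 24671296 fragments each, of which 19610514 to 19989652 were counted in genes, and edgeR's common biological coefficient of variation within groups was 2.71%. LITATS1 (ENSG00000233621), the gene that both hairpins were made against, had 57 to 72 fragments with shLITATS1-1 and 56 to 69 with shLITATS1-2, against 274 to 328 with shNT. Its log2 fold changes over shNT were -2.18 (SE 0.11) and -2.32 (SE 0.11). Of 10 epithelial markers 9 were tested. Levels are in fragments scaled to a common library total (CPM). The list summed to 9100 to 9275 with shLITATS1-1 and 5282 to 5603 with shLITATS1-2, against 5567 to 5854 with shNT. Keratins carried most of this sum, above all KRT8, at 5231 CPM with shLITATS1-1 and 2754 with shLITATS1-2, against 3032 with shNT. KRT8 rose by 0.79 with shLITATS1-1 and fell by 0.14 with shLITATS1-2, a fall that did not pass with scaling by library size alone. KRT7 rose by 0.22 and 0.14, and EPCAM was at 0.22 and 0.091, which did not pass. They are named so that all 9 are shown. CLDN4 rose by 2.14 with shLITATS1-1 and 2.22 with shLITATS1-2 and CLDN3 fell by 0.67 and 0.62, KRT18 rose by 0.92 with shLITATS1-1 and fell by 0.26 with shLITATS1-2, ELF3 fell by 0.35 with shLITATS1-1 and rose by 0.17 with shLITATS1-2, KRT19 rose by 0.44 and 1.00, and CDH1 fell by 0.46 with shLITATS1-2 and was at -0.089 with shLITATS1-1, which did not pass. Of 8 fibroblast markers 3 were tested, and the summed level of the list was 5.99 to 6.05 CPM with shLITATS1-1 and 2.07 to 2.69 with shLITATS1-2, against 3.02 to 3.59 with shNT, without overlap. LUM rose by 2.95 with shLITATS1-1 and was at 0.24 and did not pass with shLITATS1-2, and THY1 fell, at -1.02 with shLITATS1-1 and -1.29 with shLITATS1-2. Of 6 endothelial markers 1 was tested, TEK, which rose by 2.63 with shLITATS1-1 and 1.72 with shLITATS1-2; the list summed to 0.735 to 1.26 CPM and 0.724 to 1.104 CPM with these hairpins in the same order, against 0.563 to 1.18 CPM with shNT. Of 6 immune markers 2 were tested, and the list summed to 4.94 to 6.26 CPM with shLITATS1-1 and 8.27 to 10.1 with shLITATS1-2, against 6.31 to 7.32 with shNT. CD14 rose by 0.83 with shLITATS1-1 and 1.93 with shLITATS1-2, ITGAM fell by 0.80 and 0.45, and CD3E was at 0 in all 9 libraries. Unaligned fragments made up 5.53 to 5.57% with shLITATS1-1 and 5.39 to 5.496% with shLITATS1-2, against 3.66 to 3.86% with shNT, and fragments matching several genes 10.2 to 10.3% and 10.3 to 10.4%, against 10.6 to 10.9%. Markers and library measures thus moved with the groups in which SMAD6, SMAD7 and other members changed, and their part in those changes was not tested. In bulk RNA, fewer cells that express a gene and less RNA per cell cannot be told apart.

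With each hairpin the SMAD family changed member by member and not as a block. SMAD7 rose and SMAD6 fell with both hairpins. SMAD3 and SMAD5 passed the test in opposite directions: SMAD3 fell and SMAD5 rose with shLITATS1-1, while SMAD3 rose and SMAD5 fell with shLITATS1-2. SMAD2 passed, higher, with shLITATS1-1 and not with shLITATS1-2, and SMAD1 and SMAD4 passed with neither; with scaling by library size alone SMAD2 and SMAD4 passed with shLITATS1-2 too and SMAD5 did not.

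With shLITATS1-1, 5 of the 7 tested members passed, 3 higher and 2 lower. Passing means a p under 0.05 in edgeR's quasi-likelihood test after Benjamini-Hochberg adjustment over all 15500 genes. This was a comparison in which 61% of all tested genes passed, 30.5% higher and 30.5% lower. With shLITATS1-2, 4 of 7 passed, 2 higher and 2 lower, against 56.7% of all tested genes, 27.8% higher and 28.9% lower. The counts for the family are thus close to those of genes at large, and what follows rests on the size and direction of each change. Both comparisons use the same 3 shNT libraries. Over all tested genes the median absolute log2 fold change was 0.28 with shLITATS1-1 and 0.25 with shLITATS1-2.

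**Figure D1:**
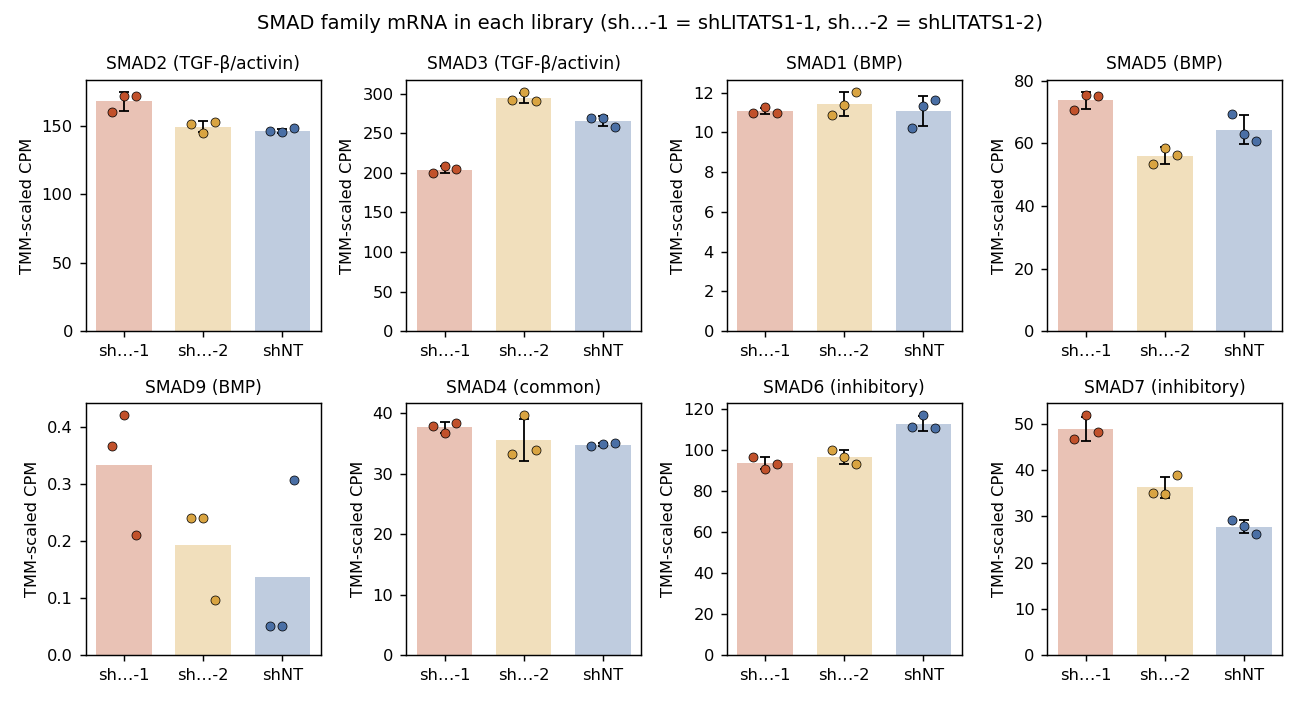
Level of each SMAD gene in each library, as CPM scaled by the trimmed mean of M-values (TMM), on axes that start at 0. Points are libraries, bars the mean of 3 and error bars the SD, except for SMAD9, which had 1 to 8 fragments per library and is drawn without error bars; SMAD7 and SMAD6 separate both LITATS1 hairpins from shNT in opposite directions, and SMAD3 lies lowest with shLITATS1-1 and highest with shLITATS1-2.

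SMAD3, the receptor-regulated SMAD that binds DNA directly in TGF-β signalling, had the highest level in the family, also per kilobase. Its level was 199, 208 and 205 CPM with shLITATS1-1 and 291, 302 and 290.3 CPM with shLITATS1-2, against 269, 269 and 258 CPM with shNT. The 3 groups did not overlap, with shNT in the middle. SMAD3 fell with shLITATS1-1 by 0.38 on the log2 scale (SE 0.032, edgeR adjusted p = 2.10e-17) and rose with shLITATS1-2 by 0.15 (SE 0.031, adjusted p = 2.09e-05). Its level fell by 23.2% with the first hairpin and was 11.02% higher with the second. The absolute changes exceeded those of 62.1% and 33.2% of tested genes.

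SMAD2, its close relative, whose main form does not bind DNA by itself, stood at 159.7, 172 and 172 CPM with shLITATS1-1 and at 151, 144 and 153 CPM with shLITATS1-2, against 146, 145 and 148 CPM with shNT. Every shLITATS1-1 library lay above every other library. With shLITATS1-2 the values lay on both sides of those with shNT. The log2 fold change was 0.20 with shLITATS1-1 (SE 0.035, edgeR adjusted p = 1.05e-06), which exceeded the absolute change of 37.5% of tested genes. With shLITATS1-2 it was 0.029 (adjusted p = 0.494), with a 95% interval of -0.040 to 0.098.

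Because SMAD2 and SMAD3 moved apart with shLITATS1-1, their balance was compared within each library, where scaling between libraries has no part. The ratio of SMAD3 to SMAD2, each as fragments per kilobase of exonic length, was 4.98, 4.84 and 4.75 with shLITATS1-1 and 7.71, 8.36 and 7.59 with shLITATS1-2, against 7.35, 7.41 and 6.97 with shNT. The ratio averaged 4.86 ± 0.115 with shLITATS1-1 and 7.89 ± 0.413 with shLITATS1-2, against 7.24 ± 0.239 with shNT (SD, n = 3 each). The 3 groups did not overlap. The log2 difference from shNT was -0.58 with shLITATS1-1 and 0.12 with shLITATS1-2. Each had p = 0.1 in a two-sided exact permutation test, which is the smallest p that 3 libraries against 3 can give. Groups that do not overlap can give no other p, and the ratio was taken up after its members had moved apart in these libraries. The p therefore adds no support. The size of the ratio depends on the length used, since the exonic length of SMAD2 is 36366 bases and its shortest principal transcript has 12075. With the shortest principal transcripts the ratio was 2.35 and 3.82 with the LITATS1 hairpins in the same order, against 3.51 with shNT, and the log2 differences are the same by construction.

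Among the BMP SMADs, SMAD5 had the highest level, also per kilobase of exonic length. It stood at 70.7, 75.5 and 75.2 CPM with shLITATS1-1 and at 53.3, 58.6 and 56.3 CPM with shLITATS1-2, against 69.5, 62.9 and 60.6 CPM with shNT. The groups did not overlap, although the lowest shLITATS1-1 library and the highest shNT library lay close together. SMAD5 rose with shLITATS1-1 by 0.20 (SE 0.045, edgeR adjusted p = 0.000130) and fell with shLITATS1-2 by 0.20 (SE 0.047, adjusted p = 0.000184). These absolute changes exceeded those of 37.7% and 42.3% of tested genes. With scaling by library size alone the second change was -0.087 and no longer passed (adjusted p = 0.105). SMAD3 and SMAD5 thus each passed with both hairpins in opposite directions, as did 9.01% of all tested genes.

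SMAD1, which has the same role as SMAD5, had lower counts. It had 209, 214 and 209 fragments with shLITATS1-1 and 225, 237 and 251 with shLITATS1-2, against 200, 222 and 227 with shNT. The groups overlapped. Its log2 fold change was 0.0002 with shLITATS1-1, with a 95% interval of -0.17 to 0.18, and 0.046 with shLITATS1-2, with an interval of -0.12 to 0.22. It passed with neither hairpin.

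SMAD9, the remaining BMP SMAD, had 7, 8 and 4 fragments with shLITATS1-1 and 5, 5 and 2 with shLITATS1-2, against 1, 1 and 6 with shNT. The sums over 3 libraries were 19 fragments with shLITATS1-1 (exact Poisson 95% interval 11.4 to 29.7), 12 with shLITATS1-2 (6.20 to 21.0) and 8 with shNT (3.45 to 15.8). The intervals cover counting error only and overlap, which is not a test of a difference. As SMAD9 did not pass the filter, whether its level differed between the groups was not tested.

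SMAD4, the partner that all receptor-regulated SMADs share, stood at 37.9, 36.7 and 38.5 CPM with shLITATS1-1 and at 33.3, 39.7 and 33.9 CPM with shLITATS1-2, against 34.5, 34.9 and 35.1 CPM with shNT. The shLITATS1-1 libraries lay above those with shNT. The shLITATS1-2 libraries lay on both sides of shNT, and replicate 2 had the highest SMAD4 level of all 9 libraries. The log2 fold change was 0.11 with shLITATS1-1 (SE 0.057, adjusted p = 0.0762) and 0.033 with shLITATS1-2 (adjusted p = 0.644). With a minimum count of 50 the shLITATS1-1 change was 0.12 and passed (adjusted p = 0.0483). AC091551.1, a protein-coding gene model on the same strand, shares 967 exonic bases with SMAD4 and was at 0 in all libraries. Fragments in shared bases can be set aside as ambiguous, so the level of SMAD4 may be understated. The same holds for SMAD5, which shares 131 and 48 exonic bases with RF02174 and RF02175 on its strand. If counting ignored strand, it also holds for the 610 bases that SMAD5 shares with SMAD5-AS1. In that case it holds too for the 376 bases that SMAD1 shares with SMAD1-AS1. These models were at 0 in all libraries as well.

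SMAD7, the inhibitory SMAD that acts on TGF-β and BMP receptors alike, had the largest change of the tested members with each hairpin. It had 892, 986 and 917 fragments with shLITATS1-1 and 728, 724 and 812 with shLITATS1-2, against 570, 546 and 512 with shNT. In CPM these are 46.9, 51.9 and 48.3 with shLITATS1-1 and 35.1, 34.8 and 39.0 with shLITATS1-2, against 29.2, 27.9 and 26.3 with shNT. The 3 groups did not overlap and stood in the order shLITATS1-1, shLITATS1-2, shNT. SMAD7 rose by 0.82 with shLITATS1-1 (SE 0.056, edgeR adjusted p = 2.29e-21) and by 0.39 with shLITATS1-2 (SE 0.058, adjusted p = 2.91e-08). These are levels 76.3% and 30.7% above shNT, and the absolute changes exceeded those of 87.1% and 67.1% of tested genes.

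SMAD6, the inhibitory SMAD that acts mainly on BMP signalling, went the other way. It stood at 96.9, 91.0 and 93.1 CPM with shLITATS1-1 and at 100.3, 96.6 and 93.5 CPM with shLITATS1-2, against 111, 117 and 111 CPM with shNT. All 6 libraries with a LITATS1 hairpin lay below all 3 shNT libraries, and the hairpin groups overlapped each other. SMAD6 fell by 0.27 with shLITATS1-1 (SE 0.038, edgeR adjusted p = 4.91e-09) and by 0.22 with shLITATS1-2 (SE 0.038, adjusted p = 4.74e-07). In absolute size these changes exceeded those of 48.7% and 46.0% of tested genes. SMAD6 and SMAD7 are both known to be induced by BMP signals, and SMAD7 by TGF-β as well.

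The promoter of SMAD6 is the one promoter among the members that holds the palindromic SMAD element GTCTAGAC in the RefSeq windows searched, 250 bases before to 50 after each start, and its last 30 bases before the start are shown for that reason, with the element in capitals.
SMAD6 promoter: ccgcggagccgccaaagtGTCTAGACtggc
The stretch is chr15:66702206-66702235 on the plus strand of GRCh38.p14, and its last 8 bases lie inside the first exon as GENCODE 29 draws it. The element is its own reverse complement, and 71 of 35116 promoter windows of the same length hold it, or 0.202%. The 3 promoter windows of SMAD7 do not hold it. Before the starts they reach to 48951215 at most, while SMAD7 as GENCODE 29 draws it reaches to 48952052. Bases outside the windows were not searched, so the element may lie near SMAD7 or other members all the same. The shorter SMAD box GTCTG, read on either strand, occurs in 45.3% of windows. Among the members it is in windows of SMAD1, SMAD3, SMAD7 and SMAD9, and not in that of SMAD6. The GC-rich SMAD element GGCGCC was also searched and occurs in 19.2% of windows. It is in windows of SMAD1, SMAD2, SMAD3, SMAD4 and SMAD5, and not in that of SMAD6. A match says only that these letters are there.

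Set against each other, shLITATS1-1 over shLITATS1-2, 4 of the 7 tested members passed edgeR's quasi-likelihood test, 3 higher and 1 lower, against 60.9% of all tested genes, 30.2% higher and 30.7% lower. SMAD3 was lower with shLITATS1-1 than with shLITATS1-2 (log2 fold change -0.53, adjusted p = 1.30e-24). SMAD7 (0.43, adjusted p = 7.77e-11), SMAD5 (0.40, adjusted p = 1.28e-11) and SMAD2 (0.17, adjusted p = 2.02e-05) were higher. The SMAD2 difference was 0.037 and did not pass with scaling by library size alone (adjusted p = 0.349). SMAD6 did not differ by a margin that passed (-0.047, 95% interval -0.12 to 0.030, adjusted p = 0.297), but did with that scaling (-0.18, adjusted p = 4.72e-05). SMAD4 had a log2 fold change of 0.081 (adjusted p = 0.208), and without shLITATS1-2 replicate 2 it was 0.16 and passed (adjusted p = 0.0173).

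Counted by overlap of CPM instead of by the test, 6 members separated shLITATS1-1 from shNT, against 64.2% of all tested genes, and 4 separated shLITATS1-2 from shNT, against 59.6%. Scaling by library size alone moved the median of all genes by about 0.11 for shLITATS1-2 over shNT, and the family's split for that comparison was then 4 higher and 1 lower. With that scaling and shLITATS1-2, SMAD3 was at 0.26 in place of 0.15, SMAD7 at 0.50 in place of 0.39 and SMAD6 at -0.11 in place of -0.22 (adjusted p = 0.00875), and all 3 still passed. SMAD2 reached 0.14 (adjusted p = 0.000290) and SMAD4 0.15 (adjusted p = 0.0222).

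**Figure D2:**
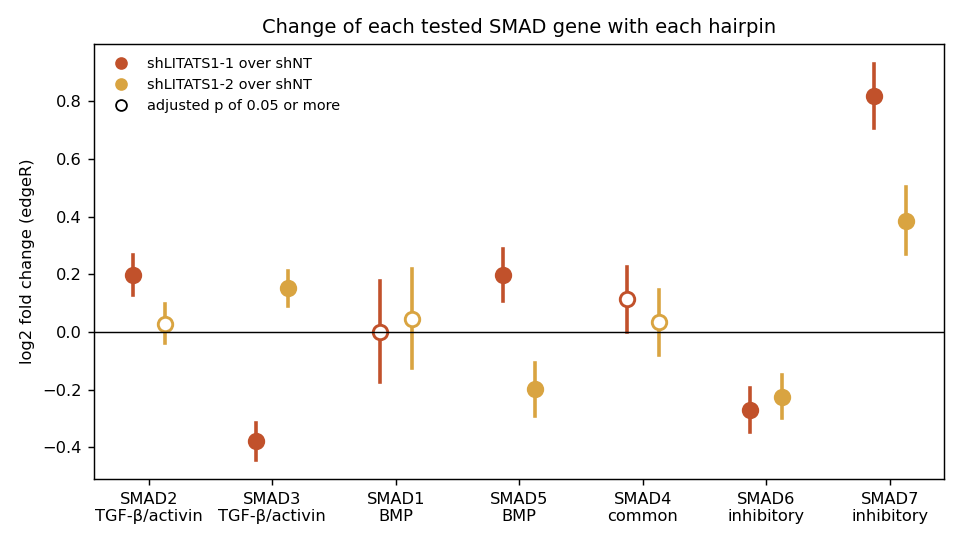
Log2 fold change over shNT of the 7 tested SMAD genes, with shLITATS1-1 left and shLITATS1-2 right of each pair; points are edgeR estimates, lines 95% intervals, and open points have an adjusted p of 0.05 or more. SMAD7 lies above 0 and SMAD6 below 0 with both hairpins, at 0.82 and 0.39 and at -0.27 and -0.22, while SMAD3 and SMAD5 lie on opposite sides of 0.

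To set members beside each other, levels were divided by exonic length. With shNT the order, in CPM per kilobase, was SMAD3 at 29.1, SMAD6 at 13.2, SMAD5 at 7.12, SMAD7 at 5.52, SMAD2 at 4.02, SMAD4 at 2.65, SMAD1 at 1.83 and SMAD9 at 0.024. With shLITATS1-1 SMAD7 stood above SMAD5, at 9.74 against 8.16 CPM per kilobase, and close to SMAD6 at 10.9. With shLITATS1-2 SMAD7 also stood above SMAD5, at 7.21 against 6.20. The level of SMAD3 per kilobase exceeded that of 87.9% of tested genes with shLITATS1-1 and 92.4% with shLITATS1-2, against 91.0% with shNT.

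As a share of all SMAD fragments per kilobase, SMAD3 made up 36.9% ± 0.163 with shLITATS1-1 and 49.1% ± 0.542 with shLITATS1-2, against 45.9% ± 0.116 with shNT (SD, n = 3 each). SMAD7 made up 16.1% ± 0.594 with shLITATS1-1 and 10.97% ± 0.761 with shLITATS1-2, against 8.69% ± 0.295 with shNT. SMAD6 made up 18.1% ± 0.894 and 17.2% ± 0.715 with these hairpins in the same order, against 20.8% ± 0.542 with shNT. Neighbours in the order of levels did not overlap in any group when exonic length was used. The shares depend on that length: with the shortest principal transcripts SMAD2 stood at 12.1 CPM per kilobase with shNT, above SMAD7 at 6.28, and SMAD1 at 6.68 and SMAD7 overlapped in their shares.

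**Figure D3:**
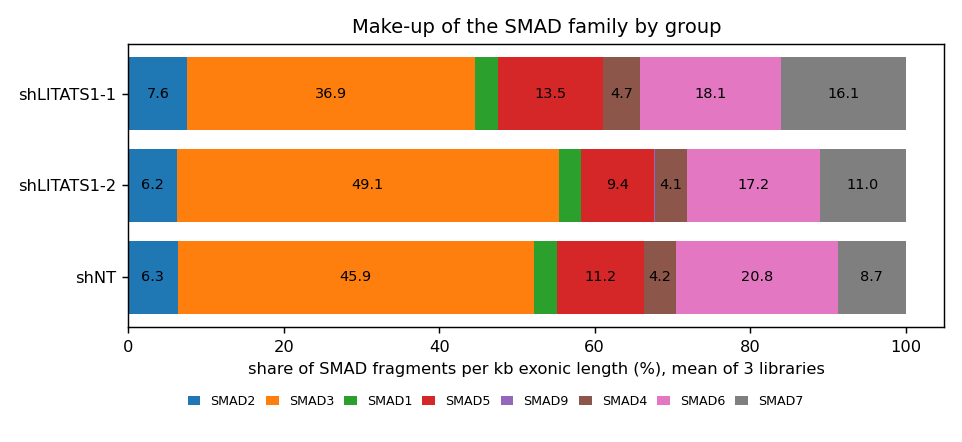
Make-up of the SMAD family in each group, as the mean share of 3 libraries of SMAD fragments per kilobase of exonic length, in percent. SMAD3 is the widest segment in each bar, at 36.9%, 49.1% and 45.9% from top to bottom, and the SMAD7 segment is 16.1%, 10.97% and 8.69%.

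The inhibitory SMADs were also summed against the receptor-regulated ones. SMAD6 plus SMAD7 over SMAD1, SMAD2, SMAD3, SMAD5 and SMAD9, all per kilobase, gave 0.574, 0.553 and 0.548 with shLITATS1-1 and 0.426, 0.399 and 0.421 with shLITATS1-2, against 0.438, 0.453 and 0.442 with shNT. The mean was 0.558 ± 0.0136 with shLITATS1-1 and 0.416 ± 0.0143 with shLITATS1-2, against 0.445 ± 0.00791 with shNT (SD, n = 3 each). The groups did not overlap, with shLITATS1-1 above shNT and shLITATS1-2 below it. The log2 differences were 0.33 and -0.097 with exonic length, and 0.083 and -0.14 with the shortest principal transcripts, so the first shrank with the choice of length. As the sum runs over the members themselves, it was not tested.

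**Figure D4:**
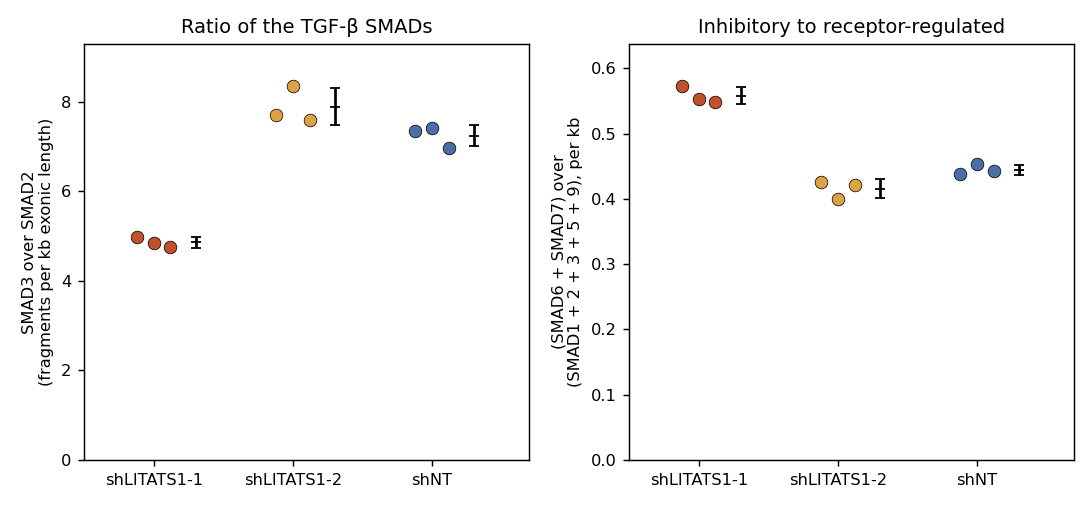
Ratio of SMAD3 to SMAD2 (left) and of the inhibitory SMAD6 and SMAD7 to the receptor-regulated SMADs (right) in each library, from fragments per kilobase of exonic length, on axes from 0. Points are libraries and the bars beside them the mean and SD of 3: shLITATS1-1 is lowest on the left at 4.86 and highest on the right at 0.558.

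The genes that act on SMADs were described from lists, with the count that passed the test in each direction. The lists share some genes, among them PMEPA1, SKIL, SMURF1 and RUNX2, so their counts are not separate. Among all tested genes 30.5% rose and 30.5% fell with shLITATS1-1, and 27.8% rose and 28.9% fell with shLITATS1-2. Of 14 receptor genes 13 were tested: 3 rose and 4 fell with shLITATS1-1, and 4 rose and 5 fell with shLITATS1-2, or 5 and 5 with scaling by library size alone. TGFBR1, the type I receptor that phosphorylates SMAD2 and SMAD3, rose by 1.02 with shLITATS1-1 and 0.86 with shLITATS1-2. TGFBR2, the type II receptor that binds TGF-β, passed in opposite directions, as SMAD3 did, falling by 0.53 with shLITATS1-1 and rising by 1.21 with shLITATS1-2. It averaged 159 CPM with shLITATS1-1 and 530.2 CPM with shLITATS1-2, against 229 CPM with shNT.

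Among the receptors of the BMP branch, BMPR2, the type II receptor, rose by 0.96 with shLITATS1-1 and was at -0.027 with shLITATS1-2, which did not pass. BMPR1B, a type I receptor, rose by 0.45 with shLITATS1-1 and fell by 0.61 with shLITATS1-2, the directions of SMAD5. ACVRL1, an endothelial type I receptor, rose by 1.08 with shLITATS1-2, at levels under 1 CPM, and was at 0.10 with shLITATS1-1, which did not pass. AMHR2, the receptor of anti-Müllerian hormone, fell by 0.99 with shLITATS1-1 and 0.88 with shLITATS1-2, also at low levels.

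All 18 genes of ubiquitin ligases and deubiquitinases that act on SMADs or their receptors were tested. For comparison, 61% of all tested genes passed with shLITATS1-1 and 56.7% with shLITATS1-2. With shLITATS1-1, 5 rose and 8 fell, and with shLITATS1-2, 6 rose and 4 fell, or 8 and 3 with scaling by library size alone. SMURF2 and SMURF1, ligases that SMAD7 brings to receptors, rose with both hairpins, SMURF2 by 0.30 with shLITATS1-1 and 1.01 with shLITATS1-2, and SMURF1 by 0.43 and 0.65. NEDD4L, a ligase for activated SMAD2 and SMAD3, fell by 0.67 with shLITATS1-1 and 0.42 with shLITATS1-2. CYLD, a deubiquitinase, rose by 0.52 with shLITATS1-1 and 0.17 with shLITATS1-2, and UCHL5, a deubiquitinase that binds SMAD7, fell by 0.43 and 0.30. RNF111, a ligase that degrades SMAD7 and SKIL, fell by 0.41 with shLITATS1-1 and 0.38 with shLITATS1-2. RNF165, a ligase known for BMP signalling in mouse neurons, rose by 1.25 with shLITATS1-1, at levels under 1 CPM, and was at -0.56 with shLITATS1-2, which did not pass.

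Of 18 genes for anchors, phosphatases and transport of SMADs, 10 rose and 4 fell with shLITATS1-1, and 6 rose and 4 fell with shLITATS1-2, or 10 and 2 with scaling by library size alone. The shares that passed over all tested genes were 61% with shLITATS1-1 and 56.7% with shLITATS1-2. PMEPA1 and LDLRAD4, relatives that sequester SMAD2 and SMAD3 from the receptor, rose most. PMEPA1 rose by 1.96 with shLITATS1-1 and 0.81 with shLITATS1-2, and LDLRAD4 by 2.30 and 0.86. LDLRAD4 had low levels, at 6.85 CPM with shLITATS1-1 and 2.52 CPM with shLITATS1-2, against 1.38 CPM with shNT. XPO1, the nuclear exporter, fell by 0.57 with shLITATS1-1 and 0.35 with shLITATS1-2, and ZFYVE16, an endosomal SMAD anchor, by 0.39 and 0.52.

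Of 35 nuclear cofactors 31 were tested, in comparisons where 61% (shLITATS1-1) and 56.7% (shLITATS1-2) of all tested genes passed. With shLITATS1-1, 13 rose and 6 fell, and with shLITATS1-2, 14 rose and 11 fell, or 15 and 6 with scaling by library size alone. ZEB2, a repressor that binds SMADs, rose by 1.103 with shLITATS1-1 and 0.91 with shLITATS1-2. SKI, a SMAD co-repressor, rose by 0.73 with shLITATS1-1 and 0.87 with shLITATS1-2, and MED15, a Mediator subunit that binds SMAD2 and SMAD3, by 0.88 and 0.69. RUNX3 fell by 0.78 with shLITATS1-1 and was at -0.088 with shLITATS1-2, which did not pass. TGIF2 passed in opposite directions, falling by 0.63 with shLITATS1-1 and rising by 0.70 with shLITATS1-2. FOXO3 and FOS fell by 0.74 and 0.60 with shLITATS1-2, and were at -0.010 and 0.28 with shLITATS1-1, which did not pass.

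Of 27 genes that TGF-β is known to induce through SMAD2, SMAD3 and SMAD4, 25 were tested, SMAD7 among them. With shLITATS1-1 all 25 tested genes rose, with a median log2 fold change of 1.40, and with shLITATS1-2, 22 rose and 3 fell, with a median of 0.45. With scaling by library size alone these were 22 and 1, with a median of 0.56. The median of all tested genes was -0.0070 with shLITATS1-1 and -0.0040 with shLITATS1-2, and 30.5% and 27.8% of them rose. The list was drawn up with results of these libraries known, so its direction is not independent evidence. SMAD7, at 0.82 and 0.39, lay below the list's median with each hairpin. TAGLN, an actin-binding protein, rose by 3.42 with shLITATS1-1 and 1.97 with shLITATS1-2. TSPAN2 rose by 3.22 and 1.63, and COL1A1, a fibrillar collagen chain, by 1.76 and 2.03. TSPAN2 had low levels, at 2.28 CPM with shLITATS1-1 and 0.754 CPM with shLITATS1-2, against 0.239 CPM with shNT. NEDD9, a scaffold protein, and SNAI2, a repressor of epithelial genes, fell by 0.51 and 0.45 with shLITATS1-2, with SNAI2 at -0.34 and no longer passing with scaling by library size alone (adjusted p = 0.116), and SKIL, a co-repressor named because it is the remaining one that fell, by 0.14. SKIL likewise no longer passed with that scaling, at -0.023 (adjusted p = 0.692). All 3 rose with shLITATS1-1, NEDD9 by 0.79, SNAI2 by 0.96 and SKIL by 0.63.

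Of 22 genes known to respond to BMPs, 17 were tested, SMAD6 and SMAD7 among them. Over all tested genes 61% passed with shLITATS1-1 and 56.7% with shLITATS1-2. With shLITATS1-1, 8 rose and 2 fell, with a median of 0.22, and with shLITATS1-2, 10 rose and 4 fell, with a median of 0.37, or 10 and 3 with scaling by library size alone. BAMBI, a decoy receptor, rose by 1.19 with shLITATS1-1 and 0.92 with shLITATS1-2, GATA3 by 0.91 and 0.37, and HEY1, a transcriptional repressor, by 0.88 and 1.55. HEY1 had low levels, at 2.58 CPM with shLITATS1-1 and 4.11 CPM with shLITATS1-2, against 1.40 CPM with shNT. NOG, a secreted BMP antagonist, rose by 1.52 with shLITATS1-2 and was at -0.20 with shLITATS1-1, which did not pass. Its levels were low, at 0.684 CPM with shLITATS1-1 and 2.26 CPM with shLITATS1-2, against 0.785 CPM with shNT. ID2 fell by 0.49 with shLITATS1-1 and 0.26 with shLITATS1-2. ID4 fell by 0.77 with shLITATS1-2 and was at -0.014 with shLITATS1-1, which did not pass. The other tested ID genes of the list, ID1 and ID3, are named so that all are shown. ID1 rose by 0.46 with shLITATS1-1 and 0.37 with shLITATS1-2. ID3 rose by 0.22 with shLITATS1-1 and fell by 0.24 with shLITATS1-2, and that fall did not pass with scaling by library size alone. All encode inhibitors of DNA binding. SMAD6 and ID2 were the list members that fell with shLITATS1-1.

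**Figure D5:**
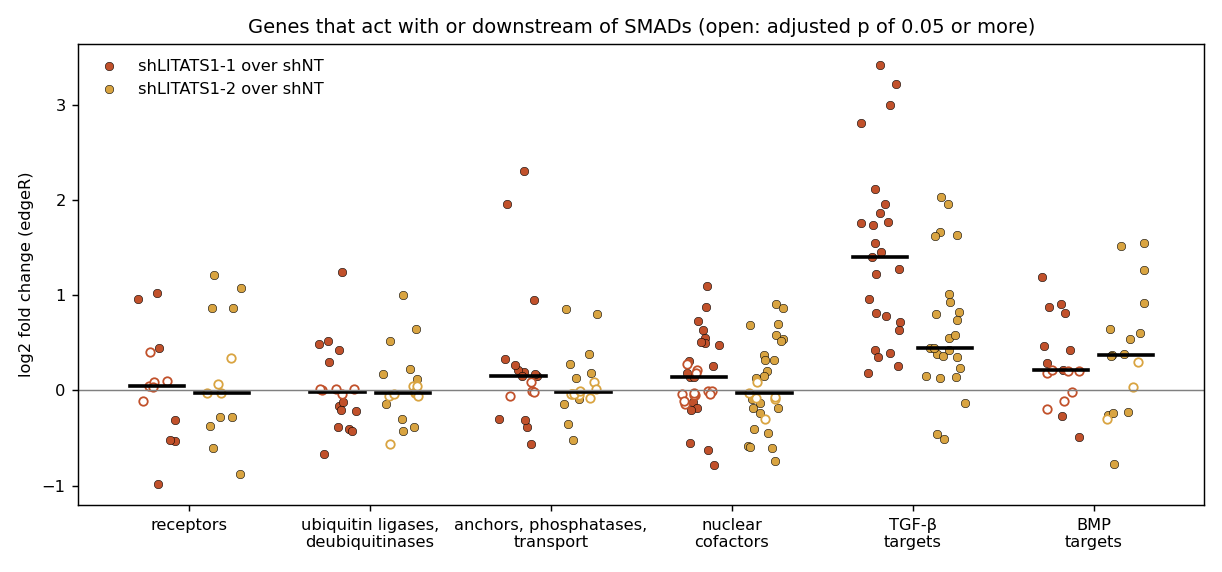
Log2 fold change over shNT of every tested gene in 6 lists of genes that act with or downstream of SMADs, with shLITATS1-1 left and shLITATS1-2 right in each pair; black lines are medians and open points have an adjusted p of 0.05 or more. The medians of the TGF-β targets stand at 1.40 and 0.45, and those of the receptor list at 0.044 and -0.027.

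The genes with profiles most like each member were found by the root mean square (RMS) difference of centred log2 CPM over the 9 libraries, among 12146 candidates. The nearest to SMAD3 was ODF2, a protein of the centrosome, at an RMS difference of 0.019, with log2 fold changes of -0.36 and 0.14, then QSOX2 at 0.037. The nearest to SMAD6 was SF1, a splicing factor, at 0.023, then CENPB, a centromere protein, at 0.028. SMAD2 was nearest to EIF4B, a translation factor (0.026), and RAB5B, an endosomal GTPase (0.029), and SMAD5 to HSPA4L (0.037) and ASAP1 (0.037). SMAD1 was nearest to SPATA13 (0.018) and the activin receptor gene ACVR1B (0.041), and SMAD4 to CCNC, cyclin C (0.039), and HIVEP1 (0.042). SMAD7 had no gene as close: ACSL4, which activates fatty acids, and CLIC4 were the nearest, each at 0.060, with ACSL4 at 0.78 and 0.27 and CLIC4 at 0.70 and 0.34. For comparison, the RMS of SMAD7 about its own mean was 0.34 and that of SMAD1 0.063, so the distances are not on the same footing.

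Finally, 5 members lie in 2 chromosome neighbourhoods. SMAD2 (47808957 to 47931146, minus strand), SMAD7 (48919853 to 48952052, minus) and SMAD4 (51028394 to 51085045, plus) lie on chromosome 18 of GRCh38 within 3276 kilobases, and SMAD6 (66702228 to 66782848, plus) and SMAD3 (67063763 to 67195195, plus) on chromosome 15, 281 kilobases apart. Of the other 13 tested genes of the chromosome 18 interval, 4 rose and 3 fell with shLITATS1-1. With shLITATS1-2, 1 rose and 5 fell. The shares that passed over all tested genes were 61% and 56.7% in the same order. On chromosome 15 SMAD6 and SMAD3 moved together with shLITATS1-1, both lower, and apart with shLITATS1-2. The one other tested gene there, AC087482.1 (ENSG00000259347), lies antisense to SMAD3, shares 182 exonic bases with it and had at most 22 fragments in any library. It was at -1.51 with shLITATS1-1 (adjusted p = 0.00905) and at 0.46 with shLITATS1-2 (adjusted p = 0.295). As the strand setting of the counting is not given in the sources used here, reads of the pair cannot be told apart. In all, 15 gene models overlap a member, and 11 of them were at 0 in every library.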

How the data were processed

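The deposited table holds raw fragment counts per gene, made from DNBSEQ reads. The submitters' processing notes name HTSeq 0.12.4, STAR 2.7.5a, cutadapt 2.10 and FastQC, and the GRCh38 build. No source used here gives the annotation release or the strand setting. The 5 lines of the counter without a gene entered neither library sizes nor tests.

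Low genes were removed with filterByExpr (minimum count 10). All 9 libraries entered 1 fit with edgeR 4.0.16 in R 4.3.3 (TMM scaling, factors 0.964 to 1.06, robust glmQLFit and glmQLFTest, Benjamini-Hochberg adjustment over 15500 genes, 6 residual degrees of freedom). The fit also shares information on spread between genes, so the tests of the members had more than these 6 degrees of freedom. CPM were computed from the counts with TMM-scaled library sizes. Replicate pairs of a group differed by more than counting noise (chi-square per degree of freedom 1.47 to 2.72), so no library was counted as a copy. Replicate numbers were taken from the titles. Lengths and coordinates came from GENCODE 29, matched by gene identifier, and promoters from RefSeq GRCh38.p14.

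All 8 members are named. Of each list, the 2 highest and 2 lowest genes called with each hairpin are named, with their values for the other hairpin where useful; for each tested member, the 2 genes with the most similar profile among those with a mean log2 CPM (prior count 2) of at least 1. The members, lists and rules were chosen with earlier results of these data known.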

Additional observations from a re-analysis of the deposited data

Results flagged for a closer look

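For 4 members the effects of the LITATS1 hairpins differed in the test of shLITATS1-1 against shLITATS1-2 itself (edgeR's quasi-likelihood test, adjusted p under 0.05, which 60.9% of all tested genes passed). SMAD3 differed by a log2 fold change of -0.53, with a mean of 204 CPM with shLITATS1-1 and 295 CPM with shLITATS1-2. SMAD7 differed by 0.43, with 49.0 and 36.3 CPM in the same order, and SMAD5 by 0.40, with 73.8 and 56.0 CPM. SMAD2 differed by 0.17, with 168 and 149 CPM, and by 0.037, which did not pass, with scaling by library size alone. LITATS1 itself was at 3.33 ± 0.405 CPM with shLITATS1-1 and 3.02 ± 0.321 CPM with shLITATS1-2 (SD, n = 3 each), and its difference between the hairpins, 0.14, did not pass (adjusted p = 0.438). The share of fragments in mitochondrial genes was 10.1 to 10.4% with shLITATS1-1 and 7.78 to 8.23% with shLITATS1-2, against 12.03 to 12.4% with shNT; its part in these differences was not tested.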

How the results depend on the processing

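Of the member comparisons under 14 alternatives each (DESeq2's test and its size factors, library size alone, no filter, a minimum count of 50, the replicate number as a block, only the 6 libraries compared, a threshold of 0.01 and each library left out), 287 kept their call, 5 gained one and 2 lost it, and no called change turned its sign. Of the 287, 7 uncalled values, of SMAD1 and SMAD4, had the other sign; the changed ones stand beside their results above. Leaving out each library in turn gave 8848 to 9182 genes called with shLITATS1-1, 8133 to 8348 with shLITATS1-2 and 8772 to 9002 between the hairpins. It gave log2 differences in the SMAD3 to SMAD2 ratio of -0.60 to -0.56 and 0.079 to 0.15, and in the ratio of inhibitory to receptor-regulated SMADs of 0.31 to 0.34 and -0.12 to -0.069. Without division by length the inhibitory ratio differed by 0.11 with shLITATS1-1 and -0.15 with shLITATS1-2, and with the shortest principal transcripts, chosen after seeing the data, by 0.083 and -0.14; by construction both give SMAD2 more weight relative to SMAD7. The replicate block gave 9295, 8630 and 9264 genes called in the 3 comparisons and changed no member's call. Same-numbered libraries did not deviate together from their group means (correlations -0.061 to 0.036). As counting noise can hide a shared deviation, whether the numbers pair the libraries cannot be told from this. Library size alone gave 6054 higher and 2968 lower genes with shLITATS1-2, and 3293 and 6911 between the hairpins, against 4302 and 4485, and 4684 and 4755, with TMM scaling. Depth limits SMAD9, at 1 to 8 fragments a library, and SMAD1, at 200 to 251.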
